A study of Saccharomyces cerevisiae with 4 samples.

Results

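The comparison described here sets a budding yeast (Saccharomyces cerevisiae) culture that overexpressed KIN28 against one that overexpressed POG1, both sampled at 0 min, before lithium chloride was added. It was chosen by the sample titles and holds 2 of the 4 arrays of the study, 1 array a side with no replicate. The other 2 arrays measured the same cultures 60 min after lithium chloride was added to 200 mM, and they serve as a second look at the difference between the cultures. The study placed both overexpressed genes in the setting of stress sensitivity of mutants of RSP5, an essential ubiquitin ligase gene.

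At 0 min the KIN28 culture carried overexpressed KIN28, and the POG1 culture carried overexpressed POG1. Both held transformed cells in exponential growth at 25 °C in synthetic complete medium with 2% glucose and no lithium. The labels mention media that lacked leucine, uracil or both without saying which culture grew in which. They give neither the RSP5 genotype nor the plasmids, and cells with an empty vector were not analysed here. The overexpressed gene, its plasmid marker and the medium therefore cannot be told apart in any difference below. Each array is 1 hybridization, so no test was run and every value describes these arrays only.

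Kin28 is the kinase of the general transcription factor TFIIH. Together with its cyclin Ccl1 it phosphorylates the repeated tail of RNA polymerase II as transcription starts, which helps to recruit the enzymes that cap messenger RNA. Pog1 is a nuclear protein identified as a promoter of recovery from the cell cycle arrest that mating pheromone causes in G1. Far1, an inhibitor of the G1 cyclin kinases, is needed for that arrest. Neither overexpressed protein was measured here.

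Signals are given as multiples of the array's median intensity over 9275 probe sets, so that 1 is the level of the middle probe set. A gene was compared when it exceeded 0.5 on at least 1 of the 2 arrays, and lower values were raised to that floor before a difference was taken. Differences are log2 of KIN28 over POG1 culture, so 1 stands for 2-fold higher in the KIN28 culture and -1 for 2-fold lower. A signal is per probe set and was not compared between genes. Of 5656 genes measured, 4735 lay above the floor in the KIN28 culture and 4769 in the POG1 culture at 0 min. The ratio of 3' to 5' signal, which rises as RNA is degraded or labelled short, was 7.5 in the KIN28 and 3.70 in the POG1 culture for SRB4. The SPT15 sets gave a ratio of 2.79 in the KIN28 and 3.83 in the POG1 culture, and the ACT1 sets one of 1.92 and 1.66 in the same cultures. Ribosomal RNA control sets differed too. A set for 18S ribosomal RNA gave 23.1 in the KIN28 culture and 4.24 in the POG1 culture, and a set for 25S gave 53.9 and 27.8 in the same cultures. Control sets for bacterial genes that were not spiked in show how far unrelated signal reached. The 95th percentile of 15 such sets, called the control level below, was 1.93 in the KIN28 culture and 1.12 in the POG1 culture. Raised to these levels in place of 0.5, 46 of the 81 genes chosen by the naming rule and at least 2-fold apart still were, and for a gene under both levels the difference then reflects the levels alone. Whether these array differences had a part in the gene differences below was not tested.

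The overexpressed genes stood far above every other difference between the cultures. KIN28 gave 71.8 in the KIN28 culture and 1.16 in the POG1 culture, 62.1-fold higher. POG1 gave 0.219 in the KIN28 culture, under the floor, and 58.1 in the POG1 culture, at least 116-fold lower, or a log2 difference of -4.91 against the control level. The pair stood apart in the same way at 60 min, with KIN28 at 64.7 and 0.872 and POG1 at 0.195 and 75 in the KIN28 and POG1 cultures. RSP5, the gene of the study's setting, gave 4.32 in the KIN28 culture and 3.65 in the POG1 culture, which differ by 0.24.

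Genes beside the overexpressed ones on the chromosome did not share their excess. Of the 3 neighbours on each side of KIN28, the ribosomal RNA processing gene RRP42 differed by -0.13, TMA17, which encodes a proteasome assembly chaperone, by -0.50 and the transcription factor gene PHO2 by 0.38. MSS2, NSE4 and YDL109C were under the floor in both cultures. Around POG1, the 4 neighbours above the floor were all lower in the KIN28 culture. KGD1, a citric acid cycle gene, differed by -0.38, AYR1 by -0.57, SIM1 by -0.74 and the drug transporter gene QDR2 by -0.94, while QDR1 and RPI1 were under the floor. The median of their chromosome, IX, was -0.40. At 60 min these 4 genes had differences from 0.20 to 0.72.

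**Figure D1:**
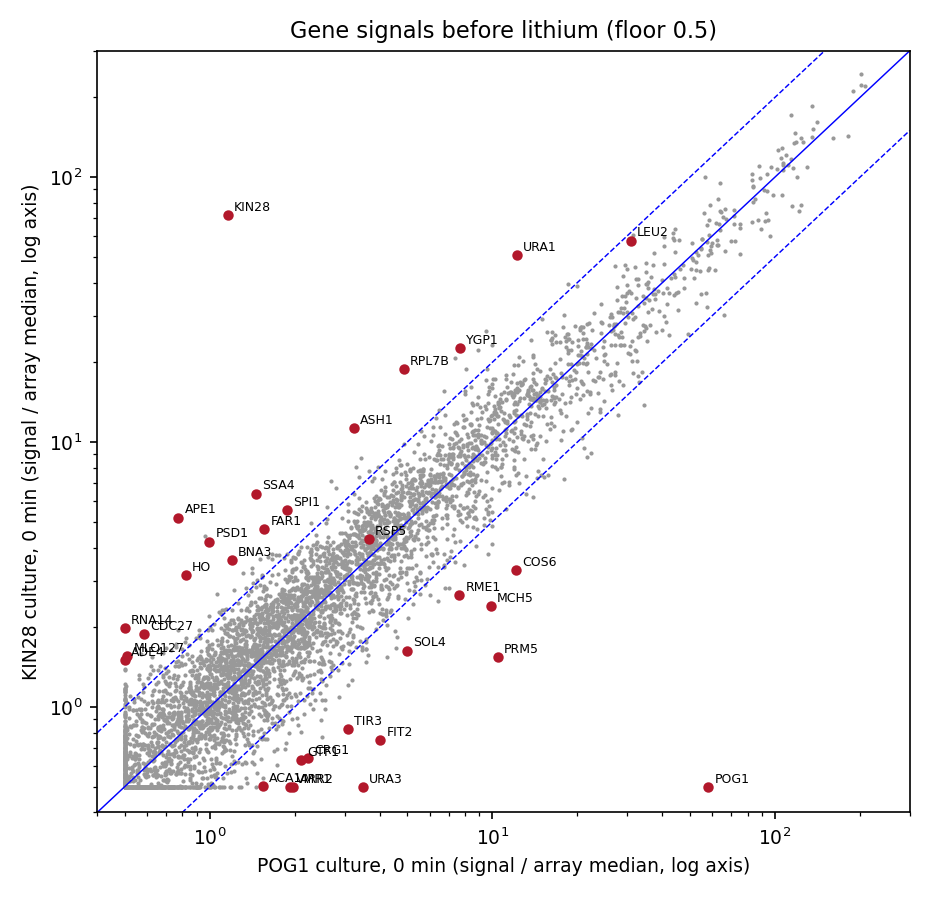
Signal of each gene at 0 min in the KIN28 culture (vertical axis) against the POG1 culture (horizontal axis), both as multiples of the array median on log axes, with values under the floor of 0.5 drawn at it. The solid line marks equal signals, the dashed lines 2-fold, and red points are the larger differences with RSP5 and LEU2 added, with KIN28 at 71.8 against 1.16 and POG1 at the floor against 58.1.

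Of 4944 genes compared, 101 (2.04%) were at least 2-fold higher in the KIN28 culture and 117 (2.37%) at least 2-fold lower, 4.41% in all. The median difference was 0.07. When a smooth curve over signal was removed (lowess), the split became 73 higher and 173 lower. Dim genes stood apart more often than bright ones. Among genes with a mean signal of 0.5 to 1, 5.26% differed at least 2-fold, and among those over 16 it was 1.33%. Genes read by 2 probe sets give the only measure of error within these arrays. Over 65 such genes a single set varied by 0.37 (SD, log2), and the difference had the same sign in both sets for 43. Of 6530 probe sets taken one by one, 5.88% were apart. This spread leaves out any variation between cultures of the same kind.

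Many of the lower genes lay on one chromosome. Genes of chromosome VII were lower in the KIN28 culture nearly throughout. Of 450 genes compared there, 427 (94.9%) had a difference below 0 and the median was -0.66, against medians from -0.40 on chromosome IX to 0.40 on chromosome I for the other 15 chromosomes. At least 2-fold lower were 68 genes of chromosome VII (15.1%) and 48 of 4362 genes (1.10%) of the other chromosomes. Chromosome VII thus held 58.6% of the lower genes and 9.35% of the genes compared. Its share of the lower genes was 21.4% at 3-fold, 30.3% with no floor, 42.2% with the floor set at each array's 20th percentile and 3.13% relative to the chromosomes. It lay 0.77 on the log2 scale below the median of the other chromosomes, a ratio of 0.587.

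The shift ran along the whole of chromosome VII. In consecutive blocks of 45 genes from the left to the right end, the medians lay between -0.52 and -0.77. By signal, the median was -0.46 for genes of chromosome VII between 0.5 and 1, and from -0.60 to -0.79 for brighter ones, whereas genes of the other chromosomes had medians from 0.05 to 0.16 in the same ranges. The 60 min arrays, which share no sample with the 0 min arrays, also had chromosome VII lowest. Its median was -0.30 there, and those of the other chromosomes ran from 0.05 to 0.37, a gap of -0.47 or a ratio of 0.721. Of 432 genes of chromosome VII compared at both times, 333 (77.1%) lay below 0 at both, against 669 of 4214 genes (15.9%) elsewhere. The copy number of the chromosome was not measured in this study, and its part in the shift was not tested.

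**Figure D2:**
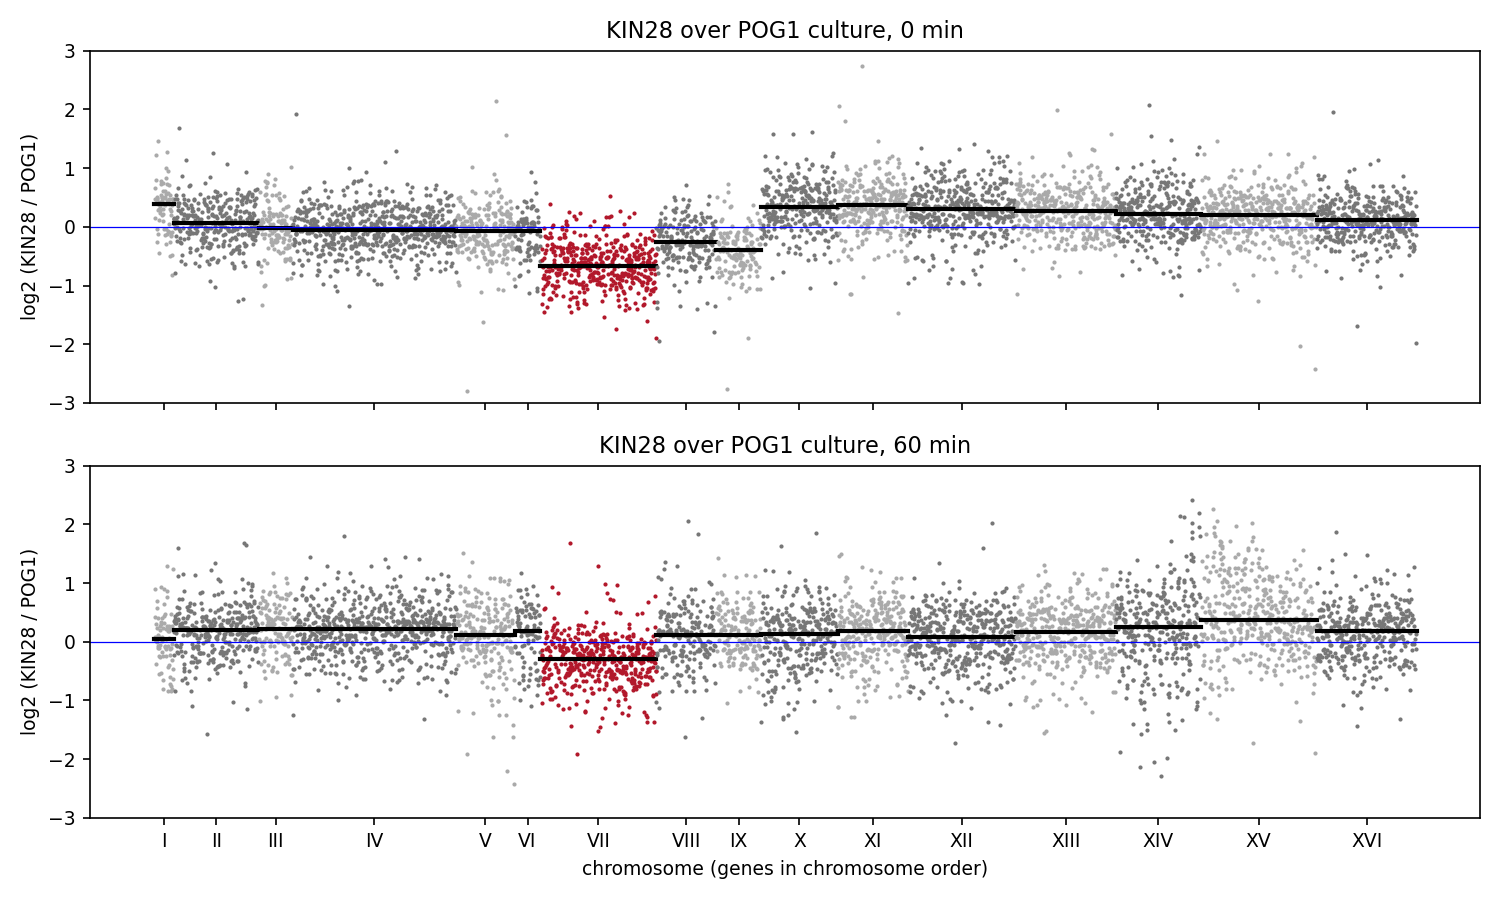
Log2 difference between KIN28 and POG1 culture for each gene in chromosome order, at 0 min (top) and 60 min (bottom), with chromosome VII in red and a black bar at the median of each chromosome. The bar of chromosome VII lies at -0.66 and -0.30, below every other chromosome at both times; KIN28 and POG1 lie beyond the axis.

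A second pattern followed the order in which the array's makers numbered the probe sets, and it was seen at 0 min as a steady trend. That numbering runs through the chromosomes in blocks. Without chromosome VII, the rank correlation of the difference with probe set number was 0.43 at 0 min over 4280 genes and -0.02 at 60 min over 4349 genes. In blocks of 1000 numbers, the median was -0.30 in the 4000s, where chromosomes VIII and IX lie, and 0.36 in the 11000s, with parts of chromosomes I and X. Genes of chromosome VII lay below the others in each block that held at least 10 genes of both. In the 2000s, 13 genes of chromosome VII had a median of -0.38 and 58 genes of other chromosomes 0.18. In the 5000s the medians were -0.62 for chromosome VII and -0.07 for the others. A rank correlation shows only a steady rise or fall, and the 60 min block medians outside chromosome VII were highest in the 8000s. They were 0.13 in the 4000s, 0.35 in the 8000s and 0.06 in the 11000s. By chromosome, the highest median at 60 min was 0.37, on chromosome XV.

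The 0 min trend also shows among the genes higher at that time. Of these, 70 of 99 with a chromosome in their name lay on chromosomes X to XIV, as did 1720 of 4812 genes compared. Within each culture, the difference between 60 and 0 min correlated with probe set number at -0.14 in the KIN28 culture and at 0.09 in the POG1 culture. The points of these correlations are genes that share 2 arrays, so no p-value was computed. The part of labelling, of the scan or of the software in the trend was not tested. Each gene difference was therefore also taken relative to the median of its chromosome. On that scale 44 genes were higher (0.89%) and 68 lower (1.38%), 2.27% in all, and chromosome VII held 2 higher and 2 lower genes. Relative to a running median along the probe set numbers, 50 were higher (1.01%) and 66 lower (1.33%), 2.35% in all.

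**Figure D3:**
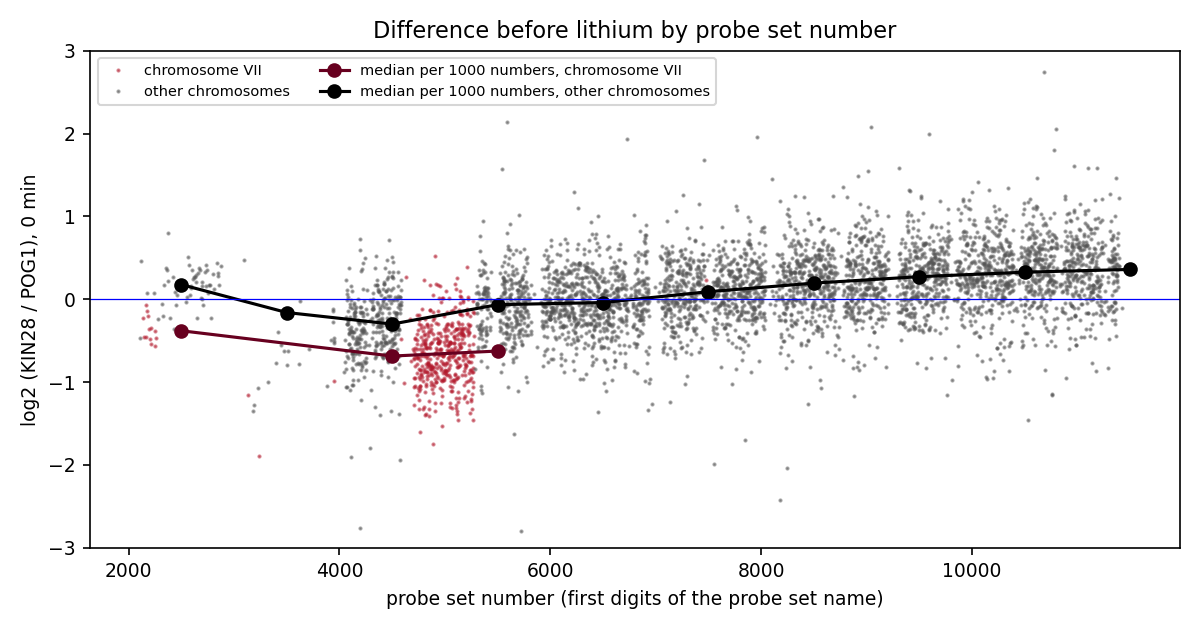
Log2 difference between KIN28 and POG1 culture at 0 min against probe set number, 1 point a gene, with chromosome VII in red. Large dots are medians per 1000 numbers, which run from -0.30 in the 4000s to 0.36 in the 11000s for the other chromosomes. They lie lower for chromosome VII in each block with at least 10 genes of both. KIN28 and POG1 lie beyond the axis.

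Among selection markers and the pyrimidine pathway, URA3 was low in the KIN28 culture, and URA1 and URA4, which act before it, were high. Yeast makes uridine monophosphate from aspartate and carbamoyl phosphate through Ura2, Ura4, Ura1, Ura5 or Ura10 and Ura3, and the activator Ppr1 raises transcription of several of these genes when intermediates accumulate. URA3, which encodes the last enzyme and is a common plasmid marker, gave 0.407 in the KIN28 culture and 3.48 in the POG1 culture, at least 6.97-fold lower. Its difference against the control level became -0.85, under 2-fold. At 60 min it gave 0.410 and 1.89 in the KIN28 and POG1 cultures. A control set for URA3 on the array read 0.549 in the KIN28 culture and 5.07 in the POG1 culture at 0 min. Both arrays of the KIN28 culture were below both of the POG1 culture on either set. The genes beside URA3 on chromosome V did not share the deficit, with RIP1 at -0.13, GEA2 at -0.23, TIM9 at -0.07, RPR1 at 0.80 and PXP1 at 0.10, and YEL023C was under the floor in both cultures.

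URA1, which encodes dihydroorotate dehydrogenase, gave 50.7 in the KIN28 culture and 12.2 in the POG1 culture, 4.14-fold higher. URA4, for dihydroorotase, gave 15.6 in the KIN28 culture and 6.77 in the POG1 culture, and the uridine permease gene FUI1 1.83 and 0.826. These were the members at least 2-fold higher, FUI1 with both signals under the control level. URA2, for the first enzyme of the pathway, gave 38.8 in the KIN28 culture and 19.9 in the POG1 culture and differed by 0.96. URA6 and URA8, which act after Ura3, differed by 0.78 and 0.76, and URA10 by 0.49. URA5 differed by 0.28, PPR1 by 0.17 and the uracil permease gene FUR4 by 0.10. Over the whole list of pyrimidine genes, 3 of 20 compared were higher and 1 lower, against 2.04% and 2.37% of all genes, with a median of 0.17. Relative to the chromosomes 2 were higher and 1 lower, against 0.89% and 1.38% of all genes, with a median of 0.05. On that scale URA1 differed by 1.69, URA4 by 0.91, under 2-fold, and URA3 by -2.73.

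At 60 min the upstream genes did not stand apart in the same way. URA1 then gave 3.34 in the KIN28 culture and 4.10 in the POG1 culture and differed by -0.30 and URA4 by -0.26, while FUI1 was under the floor in both cultures. URA3 differed by -1.92. LEU2, another plasmid marker, was high in both cultures, at 57.7 in the KIN28 culture and 30.8 in the POG1 culture at 0 min. Its neighbours NFS1, DCC1 and BUD3 differed by 0.09, 0.26 and -0.14. The marker genes HIS3, TRP1, LYS2, ADE2 and CAN1 had differences between 0.21 and 0.67. URA2, the pyrimidine genes under 2-fold and these markers were picked for the text after their values were seen.

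Of 22 compared purine synthesis genes 3 were higher and 0 lower at 0 min, against 2.04% and 2.37% of all genes, and their median was 0.26. ADE4, for the first enzyme of the pathway, gave 1.5 in the KIN28 culture and 0.481 in the POG1 culture, at least 3.0-fold higher. ADE17, for one of the last enzymes, gave 18.9 in the KIN28 culture and 8.10 in the POG1 culture. ADE13, for adenylosuccinate lyase, gave 39.4 and 18.6 in the KIN28 and POG1 cultures. All 3 lie on chromosomes XII and XIII, whose medians were 0.30 and 0.27. Relative to their chromosomes 1 of 22, ADE4, was higher, against 0.89% of all genes, and the median was 0.18. Both signals of ADE4 were under the control level. At 60 min 2 of 21 compared purine genes were lower and 0 higher, against 2.34% and 4.72% of all genes at that time.

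The largest difference among the higher genes after KIN28 was that of APE1, which encodes a vacuolar aminopeptidase delivered by the autophagy machinery. It gave 5.19 in the KIN28 culture and 0.775 in the POG1 culture at 0 min, 6.70-fold higher, and 22.2 and 9.16 at 60 min. Its POG1 signal was under the control level, against which the difference was 2.22 on the log2 scale and not 2.74. PSD1, for the mitochondrial enzyme that makes phosphatidylethanolamine, gave 4.21 in the KIN28 culture and 0.996 in the POG1 culture, 4.23-fold higher. At 60 min PSD1 gave 3.27 and 2.25 in the KIN28 and POG1 cultures. BNA3, for kynurenine aminotransferase, gave 3.59 and 1.20 in the KIN28 and POG1 cultures. CDC27, for a subunit of the anaphase-promoting complex, gave 1.88 and 0.588, and MLO127 1.56 and 0.512, in the same cultures, all under the control level.

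The 15 largest increases among genes with a standard name and above the floor on both arrays also hold cell cycle, stress and ribosomal genes described below. They were all still at least 2-fold relative to their chromosomes. Several higher genes were under the floor in the POG1 culture and give bounds. RNA14, which acts in messenger RNA cleavage and polyadenylation, gave 1.99 in the KIN28 culture and 0.494 in the POG1 culture, at least 3.99-fold higher. SPC72, a spindle pole body gene, gave 1.37 and 0.393 in the KIN28 and POG1 cultures. TMA16, SPO14, INN1, SFG1 and OAF3 gave between 1.06 and 1.18 in the KIN28 culture, at least 2.12-fold to 2.37-fold higher. Against the control level RNA14 differed by 0.84, and the others had both signals under it.

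After POG1 and the bound on URA3, the largest difference among the lower genes was that of PRM5, whose product is a membrane protein induced by pheromone and by cell wall stress. It gave 1.54 in the KIN28 culture and 10.5 in the POG1 culture, 6.80-fold lower, and 4.01 and 8.27 at 60 min. FIT2, for a cell wall mannoprotein that helps to retain iron, gave 0.75 in the KIN28 culture and 4.01 in the POG1 culture, 5.35-fold lower, and 0.985 and 3.67 at 60 min. MCH5, for the riboflavin transporter of the plasma membrane, gave 2.41 in the KIN28 culture and 9.87 in the POG1 culture, 4.10-fold lower, and 1.36 and 3.46 at 60 min. Both readings of each of these genes in the KIN28 culture were below both in the POG1 culture. Against the control level the difference of FIT2 became -1.06, and that of PRM5 -2.44.

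Of the 15 largest decreases among genes with a standard name and above the floor on both arrays, 7 lay on chromosome VII, and 10 of the 15 were still at least 2-fold lower relative to their chromosomes. On chromosome VII were COS6, of a subtelomeric family with near-identical copies that its probe set may share, at -1.89, GTF1, which acts in mitochondrial glutaminyl-tRNA synthesis, at -1.74 and the sugar phosphate gene SOL4 at -1.61. RME1, a repressor of meiosis, differed by -1.53, the anaphase activator gene CDC20 by -1.46, the cyclic AMP phosphodiesterase gene PDE1 by -1.46 and ECL1 by -1.41. Relative to the median of chromosome VII, the last 4 differed by -0.87, -0.80, -0.80 and -0.75. On other chromosomes lay TIR3 at -1.90, CRG1, on a probe set that can detect related sequences, at -1.80, the transcription factor gene ACA1 at -1.62 and the mannosyltransferase gene KTR2 at -1.46. ACA1 gave 0.502 in the KIN28 culture and 1.54 in the POG1 culture. Against the control level, TIR3 differed by -0.68, KTR2 by -0.36, CRG1 by -0.21 and GTF1 by -0.13, all under 2-fold, and ACA1 and ECL1 turned to 0.32 and 0.06.

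Lower genes under the floor in the KIN28 culture give bounds as well. The arsenate reductase gene ARR2 gave 0.446 in the KIN28 culture and 1.98 in the POG1 culture, at least 3.96-fold lower. VMR1, for a vacuolar membrane transporter, gave 0.458 and 1.92 in the KIN28 and POG1 cultures, at least 3.84-fold lower. TAN1, FYV4, SHY1 and GPG1 gave between 1.18 and 1.29 in the POG1 culture and were at least 2.35-fold to 2.58-fold lower. TAN1, SHY1 and GPG1 lie on chromosome VII. Against the control level, which is higher in the KIN28 culture, ARR2 differed by -0.04. VMR1 and the 4 genes after it then had differences from 0.00 to 0.71. None of these 6 lower genes was 2-fold lower on that scale.

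FAR1 and SWI6, which act in the G1 phase, were higher in the KIN28 culture. FAR1, the arrest gene introduced above, gave 4.68 in the KIN28 culture and 1.56 in the POG1 culture, 3.0-fold higher, and 1.31 and 0.572 at 60 min. SWI6, for a subunit of the G1 transcription factors SBF and MBF, gave 2.67 and 1.06 in the KIN28 and POG1 cultures. Over the G1 list, 2 of 17 compared genes were higher and 1, POG1 itself, lower, against 2.04% and 2.37% of all genes, with a median of -0.04. The G1 cyclin genes CLN1, CLN2 and CLN3 differed by 0.75, -0.04 and -0.44. CLN1, CLN2 and CLN3 were picked after their values were seen.

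ASH1, for the repressor that keeps HO silent in daughter cells, gave 11.3 in the KIN28 culture and 3.24 in the POG1 culture, 3.50-fold higher, and 9.41 and 4.61 at 60 min. DSE4, for a glucanase that separates daughter from mother, gave 8.74 and 3.42 in the KIN28 and POG1 cultures at 0 min and 2.28 and 0.391 at 60 min. Both genes were at least 2-fold higher in the KIN28 culture at both times. HO, the mating type endonuclease gene that Ash1 represses, gave 3.14 in the KIN28 culture and 0.824 in the POG1 culture, 3.81-fold higher, or 1.49 on the log2 scale against the control level. The median of 22 replication genes was 0.36, and 1 of them was higher, against 2.04% of all genes. That was the DNA primase gene PRI2, at 3.74 in the KIN28 culture and 1.76 in the POG1 culture. Relative to the chromosomes the list median was 0.18, PRI2 differed by 0.72 and none was 2-fold higher.

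Mating genes did not move as a group. Of 21 compared pheromone response genes, 4 were higher and 2 lower, against 2.04% and 2.37% of all genes, with a median of 0.05. Besides FAR1, the higher ones were the filamentation factor gene TEC1 at 1.26, the phosphatase gene MSG5 at 1.15 and the motor-associated gene CIK1 at 1.02, MSG5 and CIK1 with both signals under the control level. Besides PRM5, the lower one was PRM8 at -1.11, or -0.45 relative to chromosome VII and -0.89 against the control level. The pheromone-induced fusion genes FUS1 and FIG1 were under the floor in both cultures. The marker genes of the alpha mating type were all above the floor in both cultures, and 6 of 7 marker genes of the a mating type were under it in both. The exception, MFA2, gave 0.359 in the KIN28 culture and 0.733 in the POG1 culture. MF(ALPHA)2, a minor gene for alpha factor, gave 13.8 in the KIN28 culture and 34.3 in the POG1 culture at 0 min and 0.565 and 2.13 at 60 min. It lies on chromosome VII, and relative to that chromosome its difference at 0 min was -0.66. The major gene MF(ALPHA)1 differed by -0.02.

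Stress genes were higher in the KIN28 culture in a few cases only. SSA4, for a stress-induced Hsp70, gave 6.39 in the KIN28 culture and 1.45 in the POG1 culture before lithium, 4.40-fold higher. At 60 min it gave 28.9 and 24.2 in the KIN28 and POG1 cultures, a difference of 0.26. HSP78, the mitochondrial chaperone gene, gave 8.07 and 3.29 in the KIN28 and POG1 cultures. These 2 were the higher members of 29 compared heat shock genes, none was lower, against 2.04% and 2.37% of all genes, and the median was 0.38, or 0.09 relative to the chromosomes. Among 39 targets of Msn2 and Msn4, the factors of the general stress response, 4 were higher and 1 lower, with the same shares over all genes and a list median of 0.03.

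YGP1, for a secreted glycoprotein induced when nutrients run short, gave 22.6 in the KIN28 culture and 7.69 in the POG1 culture. SPI1, for a cell wall protein of acid stress, gave 5.55 and 1.87, and the glycogen synthase gene GSY2 7.16 and 2.68, in the same cultures. SOL4 was the lower one. The widely used stress reporters HSP12, CTT1 and DDR2 differed by -0.57, -0.92 and -0.26, CTT1 on chromosome VII. HSP12, CTT1 and DDR2 were named after their values were seen. At 60 min YGP1 and SPI1 were at 83.0 and 15.1 in the KIN28 culture and at 82.4 and 14.8 in the POG1 culture.

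**Figure D4:**
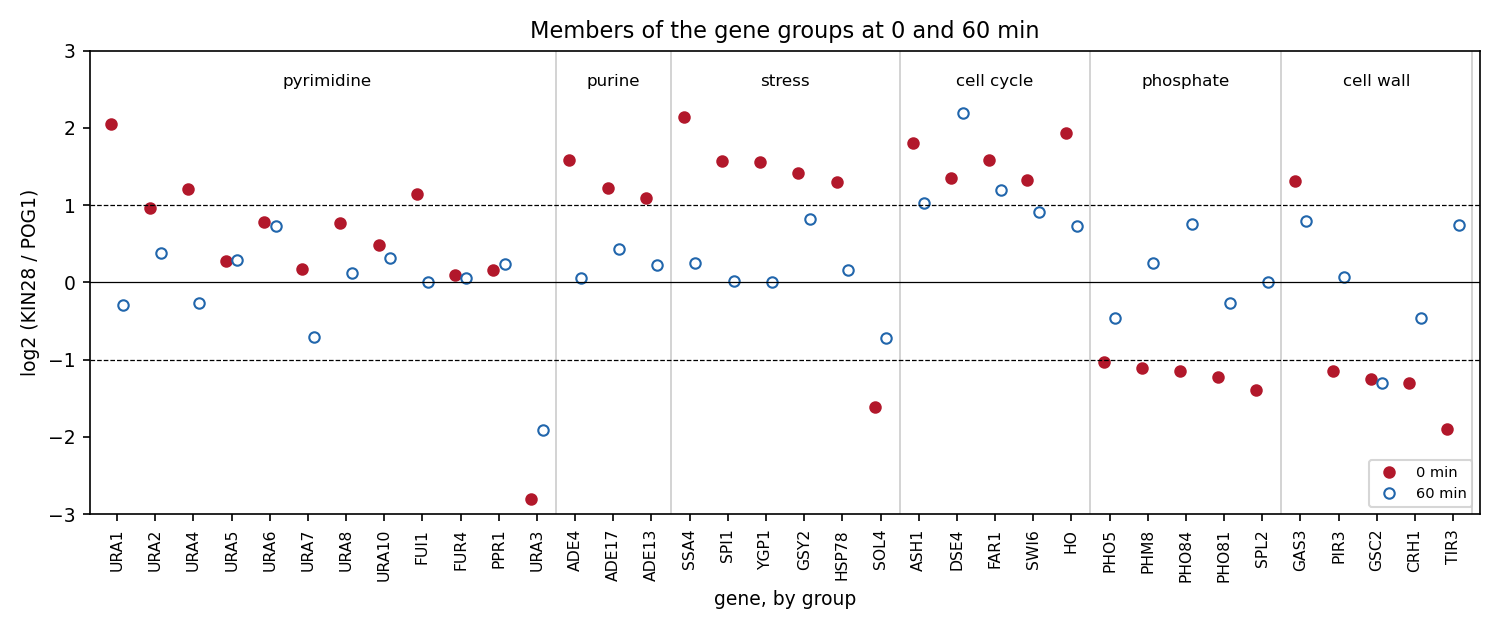
Log2 difference between KIN28 and POG1 culture for genes of 6 groups, filled at 0 min and open at 60 min, with dashed lines at 2-fold. Shown are genes at least 2-fold apart at 0 min and further pyrimidine genes; URA1 lies at 2.05 and -0.30 and URA3 at -2.80 and -1.92, values at the floor being bounds.

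Phosphate starvation genes held 5 lower and 0 higher of 21 compared, against 2.37% of all genes lower, with a list median of 0.03. PHO84, for the high-affinity phosphate transporter, gave 9.48 in the KIN28 culture and 21.0 in the POG1 culture. The acid phosphatase gene PHO5 and the phosphatase gene PHM8 gave 1.75 and 1.66 in the KIN28 culture, whereas each gave 3.57 in the POG1 culture. SPL2, an inhibitor of low-affinity uptake, gave 0.516 and 1.36 in the KIN28 and POG1 cultures. PHO5 and PHM8 differed by -0.89 each against the control level, and SPL2 turned to 0.51. PHO81, for the inhibitor of the Pho80 and Pho85 kinase, gave 2.16 and 5.04, and it lies on chromosome VII. Relative to the chromosomes 4 of the 21 were lower, without PHO81, against 1.38% of all genes. At 60 min PHO84 differed by 0.76 and PHM8 by 0.25. The list then had 1 higher and 1 lower gene of 20 compared, against 4.72% and 2.34% of all genes.

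Cell wall genes had a median of -0.29, also relative to their chromosomes, with 2 of 39 compared higher and 4 lower, against 2.04% and 2.37% of all genes. TIR3, for a cell wall mannoprotein of anaerobic growth, gave 0.828 in the KIN28 culture and 3.08 in the POG1 culture at 0 min and 1.57 and 0.938 at 60 min. PIR3 gave 1.03 and 2.27 in the KIN28 and POG1 cultures at 0 min. The glucan synthase gene GSC2 and the chitin transglycosylase gene CRH1, both on chromosome VII, differed by -1.26 and -1.30, and relative to that chromosome by -0.60 and -0.64. TIR3 differed by -0.68 against the control level, PIR3 by -0.23 and GSC2 by 0.02. GAS3, for a glucan-remodelling protein family member, gave 22.2 and 8.91 in the KIN28 and POG1 cultures, and SPI1 was the other higher member. At 60 min 4 of 42 compared cell wall genes were higher and 1 lower, against 4.72% and 2.34% of all genes at that time.

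Of 28 compared lipid genes 3 were higher and 1 lower, against 2.04% and 2.37% of all genes, and the median was -0.02. Besides PSD1, the higher ones were ELO1, for a fatty acid elongase, at 23.2 in the KIN28 culture and 9.99 in the POG1 culture, and FAS1, for the beta subunit of fatty acid synthase. FAS1 was read by 2 probe sets, which gave 24.1 and 1.35 in KIN28 cells and 15.4 and 0.438 in POG1 cells, differences of 0.64 and 1.44. The mean of both was 0.71 against the control level. Relative to the chromosomes ELO1 differed by 0.87 and FAS1 by 0.67, and the list had 1 higher gene, PSD1, and 0 lower, against 0.89% and 1.38% of all genes. OLE1, for the only fatty acid desaturase of this yeast, gave 7.26 and 17.9 in the KIN28 and POG1 cultures, a difference of -1.30, or -0.64 relative to chromosome VII. With the same shares over all genes, drug resistance had 2 of 18 higher, GRE2 at 1.24 and YRR1 at 1.24, the signals of YRR1 being under the control level. It had 1 lower, the polyamine transporter gene TPO2 at -1.13 on a suffixed probe set, or -0.47 relative to chromosome VII. Of 15 compared anaerobic genes TIR3 and OLE1 were lower, against 2.37% of all genes, and the median was -0.29.

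No other subunit of TFIIH and no subunit of RNA polymerase II was 2-fold apart, against 4.41% of all genes. Lists this short can hold none at that share. Of the other TFIIH subunits, CCL1, the cyclin partner, gave 1.37 in the KIN28 culture and 1.55 in the POG1 culture and differed by -0.18. TFB3, the third member of the kinase module, differed by 0.46, and the helicase genes RAD3 and SSL2 by 0.08 and -0.17. The 12 RNA polymerase II subunit genes had a median of -0.08. The capping enzyme genes CET1, CEG1 and ABD1 differed by -0.18, -0.41 and -0.34, CEG1 on chromosome VII. Genes for the general factors and Mediator held TFA2 at 1.02 and SOH1, on chromosome VII, at -1.35. These were 1 higher and 1 lower of 28 compared, against 2.04% and 2.37% of all genes. TFA2, SOH1 and the single subunits named here were picked after their values were seen.

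Some of the larger lists had no member 2-fold apart and are named here for that. No gene was 2-fold apart among 38 compared targets of Gcn4 in amino acid synthesis, 36 proteasome genes, 23 ion transport genes, 28 ergosterol genes, 63 genes of the mitochondrial ribosome or 24 genes of nitrogen catabolite control. Over all genes 4.41% were apart, a share at which lists of 23 to 38 genes can hold none. Of 80 compared ribosomal protein genes, RPL7B and RPL9B were higher and none lower. RPL7B was read by 2 suffixed probe sets, with 65.1 and 5.49 in KIN28 cells, against 11.0 and 2.14 in POG1 cells. RPL9B gave 20.8 and 7.40 in the KIN28 and POG1 cultures on 1 such set. Both have a near-identical paralog, so the reading is uncertain. Of 123 ribosome biogenesis genes 2 were lower, NOP7 at -1.05 and ENP2 at -1.22, both on chromosome VII, and these 2 were named after their values were seen. In all, 18 of 52 lists had no member apart.

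At 60 min the cultures stood further apart, with 236 genes higher (4.72%) and 117 lower (2.34%) of 5003 compared in the KIN28 culture, 7.06% in all. The higher genes were not spread evenly. Chromosome XV held 85 of them among its 435 genes compared and chromosome XIV 35 among its 332, and each other chromosome held 1 to 20. Relative to the chromosomes 121 were higher (2.42%) and 162 lower (3.24%), 5.66% in all, and relative to probe set number 122 (2.44%) and 167 (3.34%), 5.78% in all. Among 4756 genes compared at both times, 13 were at least 2-fold higher at both and 16 lower at both, 8 of these on chromosome VII. KIN28 is counted among the higher genes and POG1 among the lower ones, here and in the shares that follow. Of 99 genes higher at 0 min, 13.1% were 2-fold higher again, against 4.79% of all these genes, and 72 (72.7%) had a difference above 0, as did 61.9% of all. Of 114 lower at 0 min, 14.0% were 2-fold lower again, against 2.19%, and 94 (82.5%) were below 0, as were 38.1% of all. Over 4754 genes without KIN28 and POG1 the differences at both times correlated at Pearson's r of 0.27 and Spearman's rho of 0.26. Without chromosome VII r was 0.18 and rho 0.16 over 4322 genes. The points are genes on the same 4 arrays, and both times share the plasmids, the medium and possibly the flask.

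Some of the genes apart at both times were named above, namely APE1, FAR1, ASH1, DSE4, RPL9B, ELO1, FAS1, PRI2, URA3, FIT2, MCH5, PRM5, VMR1, GSC2 and MF(ALPHA)2. MHF1, for a histone-fold protein of DNA repair, gave 26.2 in the KIN28 culture and 9.53 in the POG1 culture at 0 min and 14.0 and 3.34 at 60 min. DIC1, for the mitochondrial dicarboxylate carrier, differed by 1.19 at 0 min and 2.03 at 60 min. TFC7, for a subunit of the RNA polymerase III factor TFIIIC, differed by 1.04 and 1.12 at these times. Relative to their chromosomes, DIC1, TFC7, ELO1 and FAS1 differed by 0.90, 0.85, 0.87 and 0.67 at 0 min, all under 2-fold. Of the 10 genes a direction that the naming rule took for both times, 6 in each direction were still 2-fold apart at 0 min on that scale. Among the lower genes, YPL088W, a putative aryl alcohol dehydrogenase gene without a standard name, differed by -1.69 at 0 min and -1.43 at 60 min, and at 0 min by -0.37 against the control level. PXR1, which acts in ribosomal RNA processing, differed by -1.27 and -1.36, and the aldehyde reductase gene ARI1 by -1.19 and -1.14. Relative to chromosome VII, on which they lie, PXR1 and ARI1 had differences of -0.62 and -0.53 at 0 min.

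**Figure D5:**
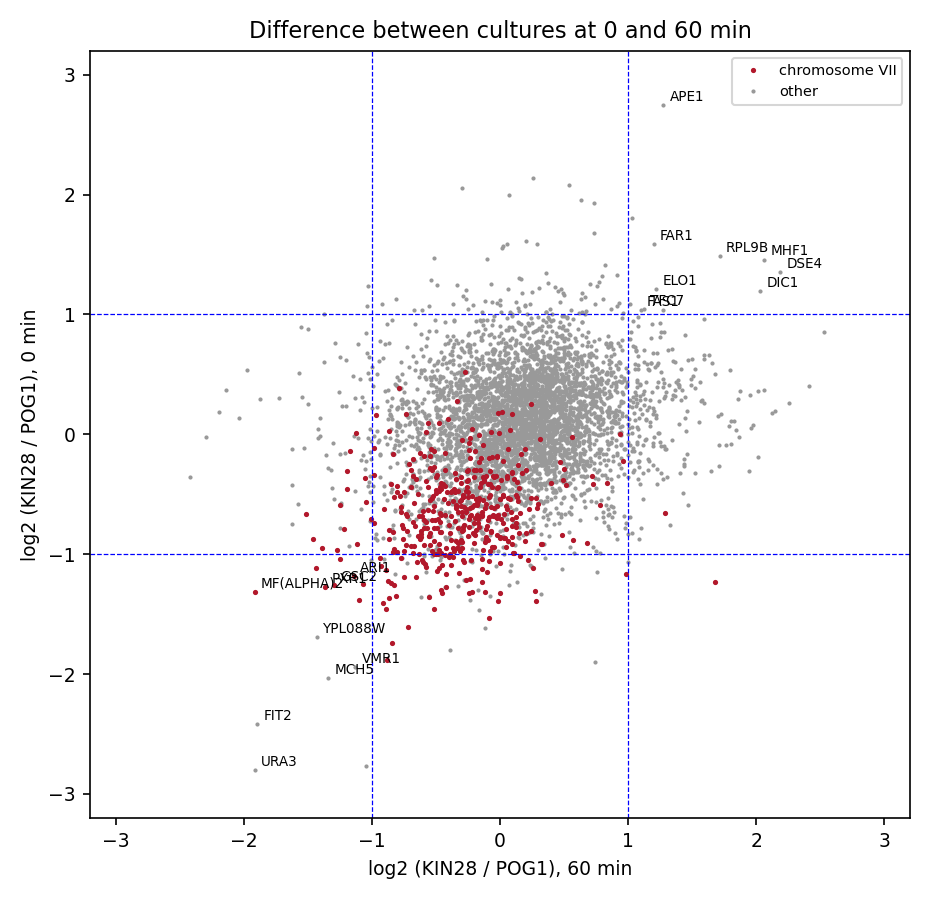
Log2 difference between KIN28 and POG1 culture at 0 min (vertical axis) against 60 min (horizontal axis), 1 point a gene, with chromosome VII in red and dashed lines at 2-fold. Genes 2-fold apart the same way at both times number 13 higher (upper right) and 16 lower (lower left). These counts include KIN28 and POG1, which are left out of the plot.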

How the data were processed

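Poly(A)-enriched RNA was hybridized as 15 µg of labelled cRNA to Affymetrix YG-S98 arrays, per the labels' protocols. The authors deposited a linear intensity for each probe set and a ratio that divides it by a constant per array; the software that made it is not given in the sources used here. The deposited series-wide table holds the same intensity. Depth does not apply to arrays, and their number, 1 a group, limits the precision.

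The deposited intensity was divided by each array's median over 9275 probe sets without the 60 controls. The medians were 41.8 and 60.6 for the KIN28 and POG1 cultures at 0 min, and 54.5 and 48.1 at 60 min. Signals under 0.5 were raised to 0.5 and log2 taken. A gene is the mean log2 over its probe sets that match 1 gene in the platform annotation (6504 sets, 5656 genes). Suffixed sets, which can detect related sequences, were used for the 211 genes without another. Chromosomes were read from systematic names. A difference counts from 2-fold, with no test.

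The comparison, the members and the 52 gene lists were chosen with earlier results of these data known. Genes were named by rule. The rule took KIN28, POG1, RSP5, URA3 and LEU2, the 15 largest increases and decreases among protein-coding genes with a standard name and above the floor on both arrays, and up to 8 bounds a direction. It added up to 10 genes a direction 2-fold apart at both times, up to 5 a direction from each list with a median beyond 0.25 or at least 3 members apart, and 3 neighbours a side. Other genes are said to be chosen after their values were seen; FUS1, FIG1 and the mating type markers other than MF(ALPHA)2 belong to these. Alternatives were other scalings, floors, probe set rules and thresholds; centring by chromosome or by probe set number and leaving out chromosome VII were chosen after seeing the data. On simulated data, 100 of 100 genes changed 4-fold and 97 of 100 changed 3-fold were recovered, with 9 of 4700 unchanged genes called; this checks the code and gives no error rate. One gene list is not reported here. Sequences are not used here. The steps ran in Python 3.11.15 with numpy 2.4.6 and with pandas 2.3.3, which also gave the rank correlations. The lowess curve came from statsmodels 0.14.6, the figures from matplotlib 3.10.9 and binomial intervals, which are not printed, from scipy 1.17.1.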

Additional observations from a re-analysis of the deposited data

Results flagged for a closer look

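In 4 genes the cultures differed at least 2-fold one way at 0 min and the other way at 60 min. They were chosen after their values were seen, and the difference between the times was not tested. APJ1, for a chaperone of the DnaJ family, gave 2.003 in the KIN28 culture and 0.999 in the POG1 culture at 0 min and 1.05 and 2.72 at 60 min, differences of 1.004 and -1.37. BIO4, of biotin synthesis, differed by 1.23 at 0 min and -1.03 at 60 min. MRX7, of a mitochondrial organization complex, differed by 1.07 at 0 min and -1.04 at 60 min. GPG1 on chromosome VII differed by -1.23 at 0 min, a bound with its KIN28 signal under the floor, and by 1.68 at 60 min.

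Control sets outside the gene comparison also stood apart at 0 min. The 18S ribosomal RNA set a gave 23.1 in the KIN28 culture and 4.24 in the POG1 culture, and set b gave 24.9 and 3.15. At 60 min set a gave 1.71 and 0.493, and set b 2.30 and 1.01, in the KIN28 and POG1 cultures. The part of these in the gene differences was not tested.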

How the results depend on the processing

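The gap of chromosome VII stayed between -0.61 and -0.79 at 0 min and between -0.44 and -0.50 at 60 min under the 14 alternatives that leave it measurable, and the rank correlation with probe set number at 0 min between 0.36 and 0.47. Counts depended on the settings and are given as higher and lower genes in the KIN28 culture. At 0 min they were 17 and 651 without scaling (48 list medians beyond 0.25, 13.9% apart among the brightest genes, median of all genes -0.43), 321 and 365 without floor or filter (probe set spread 1.36), 193 and 218 with a floor at the 20th percentile, 52 and 38 with a floor at the 95th percentile of bacterial controls (18 list medians beyond 0.25), and 54 and 71 with a floor at the median. They were 563 and 507 at 1.5-fold, 14 and 14 at 3-fold, 44 and 68 relative to chromosomes and 50 and 66 relative to probe set number, with 49 lower without chromosome VII. At 60 min the counts were 148 and 183 with 75th percentile scaling, 394 and 70 without scaling, 2002 and 13 with spiked controls, 539 and 329 without floor or filter, 376 and 198, 110 and 37 and 142 and 55 with the 3 floors in the same order, 810 and 425 at 1.5-fold and 42 and 16 at 3-fold. Relative to chromosomes 121 and relative to probe set number 122 were higher at 60 min. The share of lower genes on chromosome VII was 46.9% without scaling, 30.3% without floor, 42.2% and 68.4% with floors at the 20th percentile and at the bacterial controls, 21.4% at 3-fold, and 3.13% and 7.81% after centring by chromosome and by number. Over 104 named genes and 16 settings, 1410 of 1635 values moved by less than the spread and 216 moved by more. A change of sign was counted only for genes at least 2-fold apart as measured, and 9 values had one. Those 9 all came with the floor at the bacterial controls, which was 1.93 on the KIN28 and 1.12 on the POG1 array at 0 min. They were GPG1 0.71, SHY1 0.70, FYV4 0.60, TAN1 0.58, SPL2 0.51, ACA1 0.32, ECL1 0.062, GSC2 0.017 and VMR1 0.0046. Of 81 named genes at least 2-fold apart, 46 were so with that floor, 49 relative to chromosomes and 51 relative to probe set number. Signals near the median carry the least information, since 13 of the 81 lay under the bacterial control level on both arrays. No paired analysis was possible because the groups compared have 1 array each and so share fewer than 2 replicate numbers.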

Other observations

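Probe sets outside single genes were looked at after their values were seen. Sets for Ty elements, the retrotransposons of yeast, and their long terminal repeats were lower in the KIN28 culture. Of 194 such sets above the floor, 32 were at least 2-fold lower and 0 higher, against 211 lower and 173 higher of 6530 sets of all kinds. Their median difference was -0.60 at 0 min and -0.53 at 60 min, and many of these sets detect the same repeated sequences, so they are not separate readings. Sets for reading frames known from SAGE tags had a median of -0.04 at 0 min over 371 sets. Sets that match several genes had a median of -0.27 over 259 sets, with 3 higher and 12 lower.

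Iron genes, which the naming rule did not reach beyond FIT2, had a median of -0.16 at 0 min. Of 25 compared, 1 was at least 2-fold lower and 0 higher, against 2.37% and 2.04% of all genes. Relative to their chromosomes the median was -0.31, with 3 lower, against 1.38% of all genes. The siderophore transporter gene SIT1 gave 2.21 in the KIN28 culture and 4.22 in the POG1 culture at 0 min, a difference of -0.93, and it differed by -1.18 at 60 min. The haem oxygenase gene HMX1 and the messenger RNA decay gene TIS11 differed by -0.96 and -0.86 at 0 min and by -0.56 and -0.97 at 60 min. The high-affinity oxidase gene FET3 differed by -0.36 and -0.16 at these times, and ENB1, for another siderophore transporter, by 0.32 and 1.37. SIT1, HMX1, TIS11, FET3 and ENB1 were picked after their values were seen.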
